A study of Cyanidioschyzon merolae with 75 samples.

Results

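The 3 genes described here encode parts of the machinery that divides the plastid and the mitochondrion of the unicellular red alga Cyanidioschyzon merolae. They were chosen by locus tag as CMS004C (plastid FtsZ2-1), CMN262C (plastid division dynamin Dnm2) and CME019C (mitochondrial division dynamin Dnm1), and all 3 were found among the 4576 genes measured. The tags were matched to these names beforehand. The reference gene table of assembly ASM9120v1 holds the 3 tags and gives no other symbol for any gene measured, so the names could not be checked against it and the genes named for likeness or position below appear by tag.

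All samples were total RNA of strain 10D from a culture set in step by light and dark cycles, read every 2 h from 2 to 50 h. On each of 75 arrays of 2 colours, Cy3 marked the RNA of 1 time and Cy5 marked a pool made from the samples. Each of the 25 times appears in 3 numbered series. Series 3 equalled the mean of series 1 and 2 within 0.01% at 100% of probes at all 24 times that could be compared. It therefore adds no sample of its own. Over all probes the log2 ratios of series 1 and 2 correlated with r from 0.92 (28 h) to 0.99 (48 h). Whether these 2 series are readings of 1 sample was not tested, and a time was counted as 1 sample. Values below are those of series 3, and tests measure scatter over times, not between cultures. Times of 2 to 24 h are called the first cycle here and 26 to 48 h the second.

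FtsZ is a tubulin-like GTPase of bacterial descent that assembles into a ring on the inner, stromal side of the plastid division site. Dynamins are large GTPases that assemble into rings or collars on the outer, cytosolic side of an organelle and act in its constriction and pinching off. In C. merolae, whose cells hold a single plastid and a single mitochondrion, Dnm2 serves the plastid and Dnm1 the mitochondrion, and both organelles divide once in each cell cycle before the cell does. FtsZ2-1 and Dnm2 therefore work on opposite faces of the same membrane pair, while Dnm1 works on another organelle.

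The transcripts of the 2 plastid genes came in pulses, 1 in each cycle, and the mitochondrial dynamin showed no pulse. FtsZ2-1 was highest at 14 h and again at 34 h, and Dnm2 was highest at 16 h and again at 36 h. The plastid dynamin thus reached its highest value 1 sampling step of 2 h after FtsZ2-1 in both cycles. Each level is log2 of the raw Cy3 over raw Cy5 intensity minus the median of the array, so 0 is the ratio of the middle probe. Over the 25 times FtsZ2-1 spanned 6.84-fold, Dnm2 10.7-fold and Dnm1 1.54-fold, or 2.77, 3.42 and 0.62 on the log2 scale. The spans depend on background handling: with normexp background correction they were 3.75, 4.76 and 1.15 on the log2 scale, and the median range over all genes was 1.52 in place of 0.92. Dnm1 was also the dimmest of the 3 genes, with a median Cy5 intensity of 2161 against 3752 for FtsZ2-1 and 10530 for Dnm2. The part of brightness in its narrow span was not tested. In bulk RNA, a change in the share of cells that express a gene and a change in RNA per cell cannot be told apart.

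**Figure D1:**
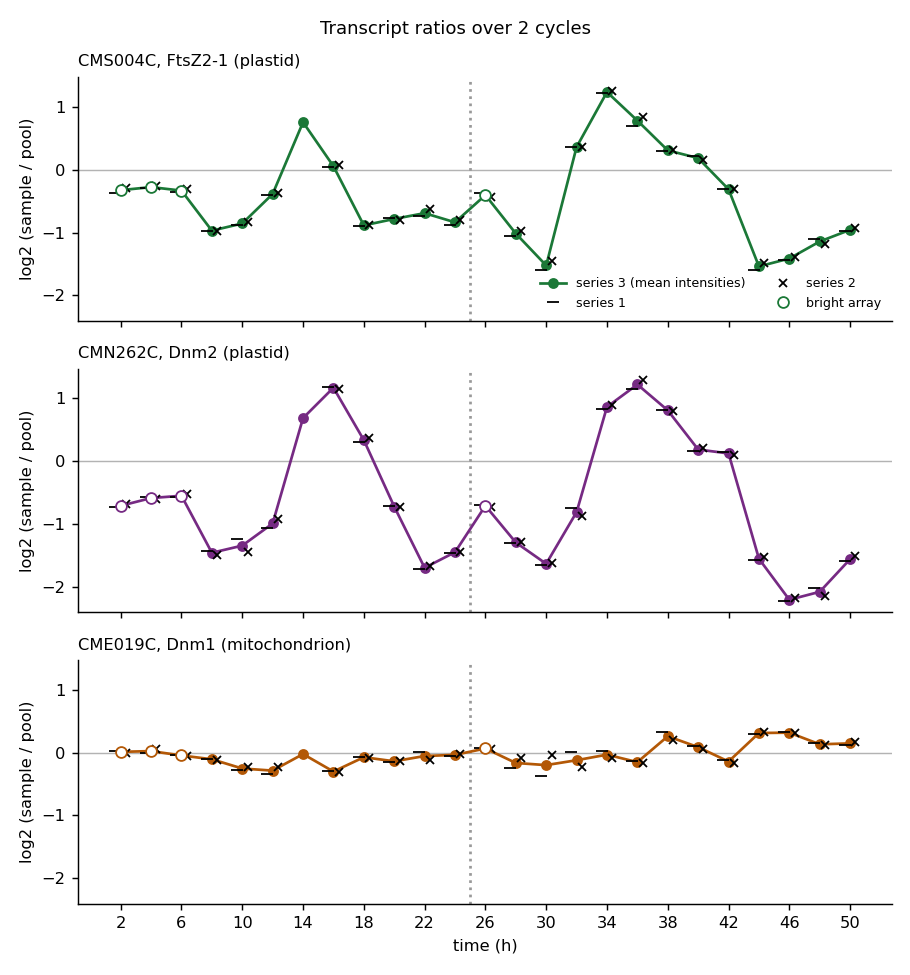
Log2 ratio of sample to pool, centred on the array median, against time in hours for CMS004C, CMN262C and CME019C. Lines join series 3, bars and crosses are series 1 and 2, which lack intensities at 14 h, open circles mark the bright arrays of 2, 4, 6 and 26 h, and the dotted line parts the cycles. FtsZ2-1 stands highest at 14 and 34 h and Dnm2 at 16 and 36 h, while Dnm1 stays between -0.30 and 0.32.

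FtsZ2-1, the component of the inner ring, stood between -0.33 and -0.28 at 2, 4 and 6 h. Its ratios of 8, 10 and 12 h were -0.97, -0.86 and -0.39. When arrays were scaled to a common spread, it was -0.54 at 6 h and -0.45 at 8 h, without a drop. Median centred, it reached 0.75 at 14 h, was 0.06 at 16 h and -0.89 at 18 h. From 20 to 24 h it lay between -0.84 and -0.69. The first pulse was therefore narrow, with 2 of 12 times above the middle between the lowest and highest value of the cycle. Interpolated between samples, the gene crossed that middle upward at 12.5 h and downward at 16.3 h.

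In the second cycle FtsZ2-1 went from -1.52 at 30 h to 0.36 at 32 h and 1.23 at 34 h. It then stepped down through 0.78 (36 h), 0.31 (38 h), 0.18 (40 h) and -0.31 (42 h) to -1.54 at 44 h. This pulse was broader, with 5 of 12 times above the middle, an upward crossing at 31.5 h and a downward crossing at 41.4 h. Its highest value exceeded that of the first pulse by 0.48, and the span within a cycle was 3.30-fold in the first and 6.84-fold in the second.

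Series 1 and 2 are taken here as 2 readings of a sample, which their likeness does not prove. Under that reading their spread gives the measuring error of a value but no error between cultures. For FtsZ2-1 the pooled SD of these readings was 0.049, and 10 of the 24 steps between neighbours in the order of its levels were within it. The levels at 36 and 14 h, 0.78 and 0.75, did not differ beyond it, whereas 34 h stood 0.45 above the next. The value at 14 h rests on the intensities of 1 array, because series 1 and 2 hold no intensities there, and without it the highest ratio of the first cycle would be the 0.06 of 16 h. The authors' own log2 values at 14 h, deposited for all 3 series, were 1.27, 1.26 and 1.27 for FtsZ2-1, against 0.42, 0.41 and 0.42 at 16 h. Those values are centred on the gene's mean over its series instead of on the array.

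Dnm2, the dynamin of the outer ring, lay between -0.71 and -0.55 from 2 to 6 h. Its ratios of 8, 10 and 12 h were -1.46, -1.34 and -0.99. When arrays were scaled to a common spread, Dnm2 was -0.90 at 6 h and -0.68 at 8 h, without a drop. Median centred, it then stood at 0.68 (14 h), 1.17 (16 h), 0.33 (18 h), -0.72 (20 h) and -1.70 (22 h). The Cy3 intensity behind the maximum at 16 h was 133367, the 1 of the 150 intensities of the 3 genes above 65535, the ceiling of a 16-bit reading. Over all probes the intensities reached 789916 in Cy3 and 917679 in Cy5, so the deposited values are not capped at that ceiling. How spots above it were read is unknown here. Without 16 h the highest ratio of the first cycle would be the 0.68 of 14 h, the hour of FtsZ2-1. The rise from 12 to 14 h coincided with that of FtsZ2-1, but Dnm2 was still above its own middle at 18 h, when FtsZ2-1 was back near its low levels. The crossings were at 12.9 and 19.1 h, so that 3 of 12 times lay above the middle.

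In the second cycle Dnm2 went from -1.63 (30 h) and -0.81 (32 h) to 0.86 (34 h) and 1.22 (36 h). The hours 38, 40 and 42 gave 0.81, 0.18 and 0.12, before -1.55 at 44 h and -2.20 at 46 h. Unlike FtsZ2-1, its highest values in the first and second cycle were alike: they differed by 0.05, within the pooled SD of readings of 0.057. The crossings were at 32.4 and 42.7 h, with 5 of 12 times above the middle. Of the 24 steps between neighbouring levels of Dnm2, 8 were within the reading spread.

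Dnm1, the mitochondrial dynamin, had its lowest value of -0.30 at 16 h, with -0.29 at 12 h. With normexp its lowest hour of the first cycle was 10 h instead. Its median was -0.05 and its highest value 0.32, at 46 h, with 0.31 at 44 h and 0.26 at 38 h. In the first cycle it never exceeded 0.02. The pooled SD of its readings was 0.074, and 23 of the 24 steps between neighbouring levels were within it, so the order of its levels is hardly resolved. The readings of series 1 and 2 were farthest apart at 30 h, with an SD of 0.24.

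Measured against the other genes, the 2 plastid genes varied widely and the mitochondrial dynamin did not. Against the log2 ranges of 2.77 for FtsZ2-1 and 3.42 for Dnm2, 10.8% of all genes had a range of at least 2. A wider range than Dnm2 was found in 1.38% of genes and a wider range than FtsZ2-1 in 3.50%. For Dnm1, with a range of 0.62, that share was 86.1%. Ranges have no replicate check.

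Rhythm was tested on all genes with a cosine and a sine of 24 h in limma. A call needed an adjusted p (Benjamini-Hochberg) below 0.05 together with a log2 peak-to-trough of 1 or more in the fitted curve. FtsZ2-1 and Dnm2 were called, 2 of the 3 genes, where 6.03% of all genes were called (5.11% with loess, where the same 2 were called). The fitted peak-to-trough was 2.00 ± 0.39 (standard error of the fit, 25 times) for Dnm2, and limma's adjusted p was 0.00228. For FtsZ2-1 it was 1.28 ± 0.31 with an adjusted p of 0.0119. Dnm1 had 0.23 ± 0.09 and an adjusted p of 0.171. With normexp the same 2 genes were called and the peak-to-trough was 2.05 for FtsZ2-1, 2.87 for Dnm2 and 0.39 for Dnm1, while loess gave Dnm1 0.14. With median centring, the median over the 3 genes was 1.28, which is the value of FtsZ2-1, beside 0.235 over all genes. Dnm1, at 0.226, lay below the median over all genes. The test takes the times as independent, which neighbouring samples of 1 culture are not.

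Each cycle was also fitted alone, and the second gave both calls while the first gave neither. Fitted to 2 to 24 h alone, FtsZ2-1 had 0.47 ± 0.35 (limma, adjusted p 0.602), and Dnm2 1.45 ± 0.54 with 0.183, where 5.2% of all genes were called. From 26 to 48 h alone the values were 2.13 ± 0.41 with an adjusted p of 0.0146 for FtsZ2-1 and 2.84 ± 0.44 with 0.00412 for Dnm2, where 6.34% were called. Dnm1 was called in neither, with adjusted p-values of 0.306 and 0.226. The measured log2 span of FtsZ2-1 was 1.72 from 2 to 24 h and 2.77 from 26 to 48 h.

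The change of rhythm between cycles was then tested itself, as an interaction of cycle with the 24 h curve in limma, which takes the size and the peak time of the curve together. None of the 3 genes was called, where 0.721% of all genes were. The fitted peak-to-trough was larger in the second cycle by 1.66 for FtsZ2-1 (adjusted p 0.240), by 1.40 for Dnm2 (0.278) and by 0.13 for Dnm1 (0.340). A difference between cycles in size or timing was thus not established for any of them. The unadjusted p was 0.0267 for FtsZ2-1 and 0.0421 for Dnm2. Without the bright arrays of 2, 4, 6 and 26 h, 3 of which lie in the first cycle, the difference in peak-to-trough was 0.14 for Dnm2 (limma, adjusted p 0.0934) and 1.18 for FtsZ2-1 (0.199).

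The order of the plastid genes was compared through their fitted peaks. Over both cycles FtsZ2-1 peaked at 12.1 ± 0.95 h and Dnm2 at 13.7 ± 0.78 h. Dnm2 followed by 1.63 h, with a standard error of 0.74 h that allows for the shared residuals and a 95% interval of 0.10 to 3.16 h. With normexp the lag was 0.82 h. With loess normalisation within arrays it was 1.48 h and its interval, -0.14 to 3.10 h, included 0. Taken by cycle, it was 2.24 h (-4.12 to 8.61 h) in the first and 0.95 h (-0.48 to 2.37 h) in the second, and both intervals included 0.

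The measured maxima kept the same order in both cycles. FtsZ2-1 was highest at 14 and 34 h and Dnm2 at 16 and 36 h. This held under median centring, loess, scaling between arrays, normexp and the authors' log2 values. All of these rescale the same arrays, so their likeness gives no separate support. The order of the first cycle rests on the FtsZ2-1 value of 14 h and the Dnm2 value of 16 h. With loess, Dnm2 was 1.30 at 36 h and 1.26 at 38 h. Over all genes, 5.24% were highest at 14 or 16 h and then at 34 or 36 h. A lag of 1 sampling step is the smallest the design can show. On the rising side the genes were closer, since Dnm2 crossed its middle 12.9 h into the course against 12.5 h for FtsZ2-1, and at 32.4 h against 31.5 h in the second cycle. On the falling side of the first pulse they were wider apart, at 19.1 and 16.3 h. The falling crossings of the second pulse, at 42.7 and 41.4 h, were closer together than those of the first. All crossings are interpolated between samples 2 h apart. The curve of Dnm1 was not called, so its fitted peak of 22.2 ± 1.5 h sets no place in the order. Its highest values, at 4 h in the first cycle and 46 h in the second, were 42 h apart.

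The profiles of FtsZ2-1 and Dnm2 resembled each other, as a description over 25 times that share arrays. Pearson's r was 0.83 and Spearman's rho 0.82 at the same hour, and r was 0.85 when Dnm2 was read 2 h later. When it was read 2 h earlier, r was 0.31. Without 14, 16, 34 and 36 h, the hours of the maxima, r at the same hour was 0.73 over 21 times. Against Dnm1, r was -0.18 for FtsZ2-1 and -0.23 for Dnm2.

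The highest measured values of the second cycle lay earlier in the cycle than those of the first, but the test of a change between cycles called neither plastid gene. For FtsZ2-1 and for Dnm2 alike the highest values were 20 h apart, which puts them 10 and 12 h into the second cycle against 14 and 16 h into the first. The curves fitted to each cycle peaked at 13.4 ± 2.8 and then 11.8 ± 0.74 h for FtsZ2-1, a shift within its error, and at 15.7 ± 1.4 and then 12.7 ± 0.60 h for Dnm2. Of the crossings of the middle, the upward crossings were 19.0 h apart for FtsZ2-1 and 19.5 h for Dnm2, while the downward ones were 25.0 and 23.6 h apart. Among shifts of 16 to 30 h, each plastid profile was most like itself at 20 or 22 h. For FtsZ2-1, r was 0.63 at 20 h and 0.15 at 24 h (15 and 13 pairs of times). For Dnm2, r was 0.71 at both 20 and 22 h and 0.44 at 24 h. Dnm1, which showed no pulse, was likewise most like itself at 20 h, with an r of 0.44 against 0.15 at 24 h.

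**Figure D2:**
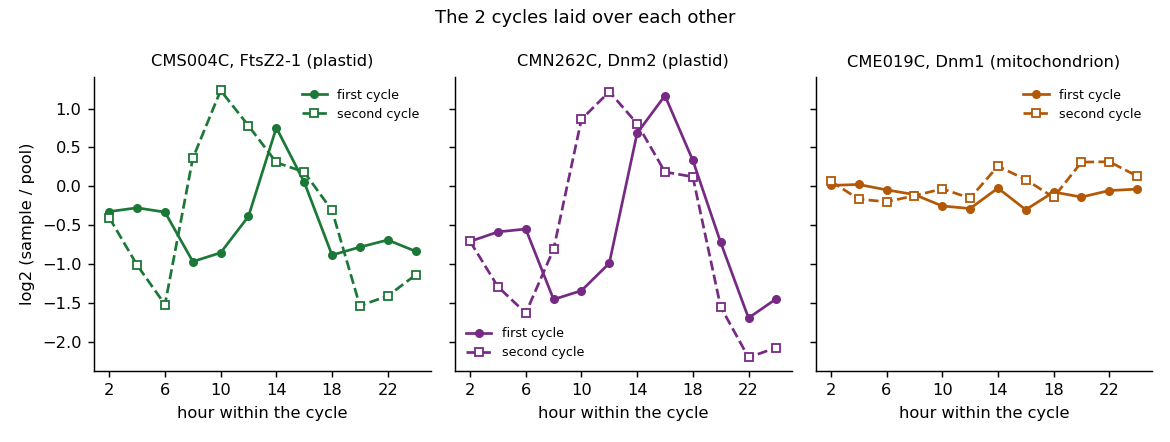
Log2 ratio to the pool against the hour within the cycle for the first cycle (filled circles, 2 to 24 h) and the second (open squares, 26 to 48 h). The second pulse has its maximum at hour 10 for FtsZ2-1 and 12 for Dnm2 in place of 14 and 16. Dnm1 has no pulse in either cycle.

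A curve of 20 h, tried after the spacing had been seen, took up 68.9% of the variance of Dnm2 and 47.3% of that of FtsZ2-1, against 50.2% and 40.0% for a curve of 24 h. Since that period was taken from the spacing of these maxima, the fit describes them and tests nothing. Over all genes 131 were called at 20 h, in place of 276 at 24 h.

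Spacings below 24 h were also found in other genes. Of the 276 genes called rhythmic at 24 h, 186 (67.4%) had their highest values less than 24 h apart, and the median spacing was 20 h. Over all 4576 genes these were 2096 (45.8%) and 24 h. Of the 276 rhythmic genes, 86 were highest at 14 or 16 h in the first cycle, the 2 plastid genes among them. In 61 of these 86 the highest values were 20 h apart, and in 81 less than 24 h. Among the other 190 rhythmic genes 29 had a spacing of 20 h, 42 one of 24 h and 105 one of less than 24 h. The last count holds genes highest near the end of the first cycle and again at the start of the second, whose maxima lie only a few hours apart because the cycles are parted between 24 and 26 h. These counts are descriptions made after the values were seen and carry no test, because the genes share arrays and were called on the same times.

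**Figure D3:**
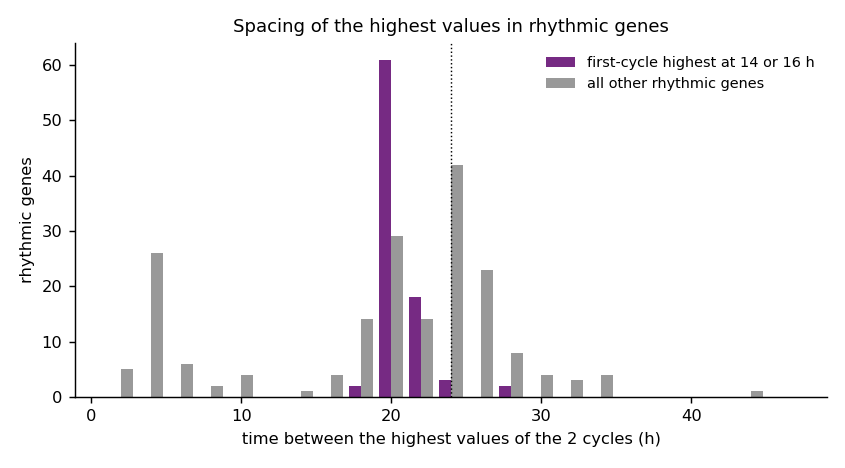
Number of rhythmic genes by the time in hours between the highest value of the first and of the second cycle, for the 86 genes highest at 14 or 16 h in the first cycle (purple) and the other 190 (grey). The dotted line marks 24 h. The purple bars stand mostly at 20 h, with 61 genes, where FtsZ2-1 and Dnm2 lie.

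Mean levels of the cycles were compared over 12 pairs of times 24 h apart, with limma on all genes. The highest values of both plastid genes were 20 h apart, so the pairs set some hours of a pulse against hours outside it. For FtsZ2-1, -0.86 at 10 h was paired with 1.23 at 34 h. The part of this in the errors and in the counts of higher times was not tested. A call needed a 1.5-fold difference beside an adjusted p below 0.05. None of the 3 genes was called, where 2.03% of all genes were. FtsZ2-1 was 0.09 ± 0.25 higher in the second cycle (standard error, 12 differences), higher at 5 of 12 matched times, with an adjusted p of 0.905. Dnm2 was 0.02 ± 0.28 higher, also at 5 of 12, with 0.982. Dnm1 was 0.14 ± 0.07 higher at 8 of 12 matched times, with an adjusted p of 0.363 from limma.

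Array brightness moved with some of these values. Median Cy5 intensity was over 10000 on the arrays of 2, 4, 6 and 26 h, where log2 ratios over all probes had an SD of 0.23 to 0.26, and the widest arrays were those of 46 and 48 h, at 0.62 and 0.55. FtsZ2-1 stood at -0.40 at 26 h between -0.84 at 24 h and -1.02 at 28 h. When arrays were scaled to a common spread these 3 values were -0.80, -0.83 and -1.14 at 26, 24 and 28 h. The step up from 24 to 26 h was then nearly gone. In that scaling the lowest hour of the first cycle moved from 8 to 20 h for FtsZ2-1. For Dnm2 it moved from 22 to 10 h in the first cycle and from 46 to 28 h in the second. Without the 4 bright arrays the peak-to-trough was 1.60 for FtsZ2-1 and 2.65 for Dnm2, and limma gave adjusted p-values of 0.00631 and 6.35e-04. The high values of Dnm1 at 44 and 46 h lie next to or on the widest arrays. Without 46 and 48 h Dnm1 had a peak-to-trough of 0.17 with an adjusted p of 0.419.

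The channels were also taken apart, since a ratio can move through either. The pool in the Cy5 channel is labelled as the same mixture on every array, so its level relative to the array median would be level in the ideal case. For Dnm2 it was not: log2 Cy5 minus the array median had an SD of 0.90 over the 25 times, from 0.06 at 26 h to 3.72 at 38 h. For FtsZ2-1 the SD was 0.59 and for Dnm1 0.37. The Cy3 channel varied more for the plastid genes, with SDs of 1.47 for Dnm2 and 0.94 for FtsZ2-1, but not for Dnm1, at 0.34.

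At the maxima the sample channel stood above the pool channel, which follows from how the ratio is made. The ratio is nearly the Cy3 level minus the Cy5 level, so its correlations with the channels are in part built in too. For Dnm2 at 16 h the level was 4.78 above the array median in Cy3 and 3.57 in Cy5. At 36 h it was 3.02 and 1.76. At 46 h the order was turned, with -0.12 in Cy3 and 2.06 in Cy5. For FtsZ2-1 the Cy3 and Cy5 levels were 2.41 and 1.57 at 14 h, and 2.55 and 1.33 at 34 h. At 44 h they were 0.06 and 1.57. Over the 25 times the ratio had a Pearson's r with the Cy3 level of 0.78 for FtsZ2-1 and 0.80 for Dnm2, and with the Cy5 level of -0.005 and 0.16. The part of the moving Cy5 level in the pulses was not tested further.

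**Figure D4:**
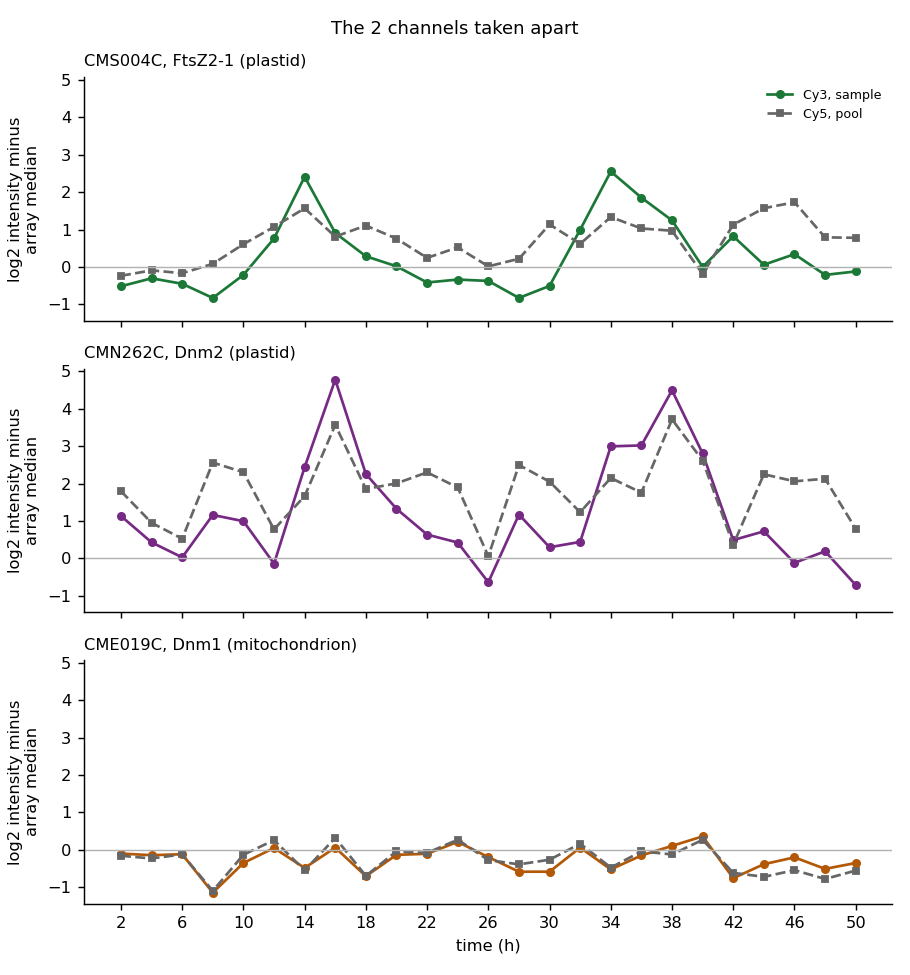
Log2 intensity minus the array median against time in hours for the sample channel (Cy3, circles) and the pool channel (Cy5, squares) of each gene. For both plastid genes Cy3 rises above Cy5 at the pulses and lies below it at most other times, 44 to 50 h among them. For Dnm1 the channels run close together.

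Genes most like each member were ranked by Pearson's r over the 25 times, which all genes share. Shared hours of the maxima and a shared rhythm are in part built in by that ranking. For FtsZ2-1 the closest genes were CMN156C with 0.95, CMN066C with 0.94, CMI192C with 0.93, CMH264C with 0.93 and CMB107C with 0.92. All 5 were highest at 14 and 34 h, the hours of FtsZ2-1 itself. CMH264C had the widest range of the 5, 3.77, and a fitted peak-to-trough of 2.09 ± 0.37 (limma, adjusted p 9.18e-04). Dnm2 stood in place 28 of the 4575 other genes in this order, and Dnm1 in place 3092.

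For Dnm2 the closest profiles were those of CMB086C with an r of 0.95, CMO005C and CMH122C with 0.93 each, and CMG015C and CMT504C with 0.92 each. All 5 were highest at 16 h in the first cycle, and their second maxima were spread over 34 h (CMB086C), 36 h (CMH122C and CMG015C) and 38 h (CMO005C and CMT504C). CMT504C had a range of 4.45, wider than that of Dnm2. FtsZ2-1 was in place 37 in the order of Dnm2. An r over 0.8 with Dnm2 was reached by 48 genes and with FtsZ2-1 by 38.

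For Dnm1 the closest genes were CMK217C with an r of 0.87, CMR093C with 0.85, and CMH097C, CMO106C and CMA075C with 0.84, 0.84 and 0.83. No gene passed 0.9. None of the 5 was called rhythmic by limma, the lowest adjusted p being 0.250, and their ranges ran from 0.45 to 0.75. Like Dnm1, these genes varied little. All 5 were highest at 44 or 46 h in the second cycle, beside or on the array of widest spread. The part of array spread in this likeness was not tested.

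In the gene order of the reference, the neighbours of Dnm2 included a gene with the same timing. CMN263C, next after CMN262C, was highest at 16 and 36 h and had an r of 0.78 with Dnm2. Its peak-to-trough was 2.96 ± 0.38 (limma, adjusted p 3.09e-05). On the other side CMN260C had an r of 0.46 and a peak-to-trough of 0.57 ± 0.17. CMN259C and CMN264C, each 2 places away, had an r of 0.18 and 0.49. The pulse was therefore strong in 1 of the 4 measured neighbours.

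FtsZ2-1 was the first measured gene of its chromosome in that order and had neighbours on 1 side only. CMS005C had an r of 0.69 and was highest at 14 and 34 h as well, but its range was 0.67 and its peak-to-trough 0.08 ± 0.08. CMS007C had an r of 0.26. Around Dnm1, CME017C had an r of 0.73 and CME018C, CME020C and CME022C had 0.28, 0.25 and 0.18. None of these 6 genes was called rhythmic, with adjusted p-values from limma of 0.145 to 0.983.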

How the data were processed

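RNA was amplified by way of oligo(dT)-primed cDNA and coupled to Cy3 (sample) or Cy5 (mixture of samples), per the labels' protocols. The authors deposited raw Cy3 and Cy5 intensity values, Cy3 intensity scaled by array, the ratio of scaled Cy3 to Cy5 and log2 values. The sources used here give neither scanner nor background handling nor light hours. Intensities exist on 73 of 75 arrays. Log2 values were taken from the series table, since the file of series 3 at 48 h differed from it.

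The members and lists were chosen with earlier results of these data known. Here, log2(Cy3/Cy5) minus the array median was averaged over the probes of a gene (4586 probes, 1 for each member), and series 3 was fitted with limma 3.58.1 in R 4.3.3 on 4576 genes with Benjamini-Hochberg adjustment. Median centring is the scaling by which the members' values were defined, and loess was the first alternative. Intensities entered without background correction, since no background column exists. The scripts were tested on simulated data. The named genes are the members, the 5 genes most correlated with each, and 2 measured neighbours on each side in the reference. Relatives by protein sequence, products and promoter motifs were planned and not run, as no sequence or product was used here. The number of arrays limits precision.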

Additional observations from a re-analysis of the deposited data

How the results depend on the processing

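The rhythm calls of FtsZ2-1 and Dnm2 held in every setting but the fit of the first cycle alone (0.47 and 1.45). Over settings with a series left out the peak-to-trough ran from 1.18 to 1.28 for FtsZ2-1, 1.94 to 2.00 for Dnm2 and 0.227 to 0.234 for Dnm1. With a time left out it ran from 1.11 to 1.44, 1.85 to 2.22 and 0.18 to 0.27. Leaving a series out is no separate check, because series 3 is the mean of series 1 and 2. Without series 1 or 2 the readings left out stay in series 3, and without series 3 little but 14 h is lost. Background handling moved the peak-to-trough more, to 2.05, 2.87 and 0.39 with normexp, and loess gave Dnm1 0.14. Dnm1 was called rhythmic in none, but a call needs a peak-to-trough of 1 and its median-centred range was 0.62. With all arrays as separate values its adjusted p from limma was 5.2e-04, or 6.6e-04 with the series number as replicate block. There the cutoff alone withheld the call, in fits that count series 3 beside the 2 series it averages.

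The fitted peak moved by more than its standard error to 13.1 h for FtsZ2-1 with normexp and to 13.2 h with an added 12 h harmonic, where Dnm2 was at 14.9 h. The highest measured times were hour 14 and 16, then 10 and 12. The lag of Dnm2 was 0.82 h with normexp, 1.59 to 1.79 h with a series left out and 1.19 to 2.01 h with a time left out. The settings with a series left out share the same readings, so their narrow range is no separate check.

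The level difference of Dnm2 turned to -0.12 with normexp. With a time left out it ran from -0.094 to 0.20 for FtsZ2-1 and from -0.18 to 0.12 for Dnm2, negative without 8 or 32 h (-0.025 and -0.037), 10 or 34 h (-0.094 and -0.18), or 12 or 36 h (-0.010 and -0.18), with no call. The change of rhythm of Dnm1 turned to -0.079 with array weights. Treating all arrays as separate values, with and without the series number as replicate block, called the change of rhythm in all 3 genes: 1.92 with the block and 1.91 without for FtsZ2-1, 1.55 and 1.55 for Dnm2, 0.083 and 0.083 for Dnm1. Those fits count series 3 beside the 2 series it averages, so their error is too low. The deviations of series 1 and 2 had correlations between times of -0.09 to 0.14, so the numbers do not pair samples.

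Rhythmic genes numbered 276, 444 with normexp, 1096 by adjusted p alone and 131 at 20 h. Level calls numbered 93, 53 with loess, 160 with normexp and 204 by adjusted p alone. Genes with a change of rhythm numbered 33, 108 with loess, 103 with scaling between arrays, 67 with normexp, 2813 and 2770 with all arrays without and with the block, 15 without the bright arrays, 179 with array weights, 64 without 46 and 48 h, and 10 to 60 with a time left out. The fits without 46 and 48 h and at 20 h were chosen after the data were seen. The cause of these differences was not tested.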
